A study of Rattus norvegicus with 6 samples.

Results

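Non-canonical microRNAs (miRNAs) are short RNAs that reach Argonaute proteins while bypassing a step of the usual processing route. The rows of miR-320, miR-484, miR-702, miR-877, miR-1224, miR-664 and miR-1839, with any copy number or arm suffix, were taken from the table of raw read counts. They came to 12 mature miRNAs of 7 families, out of 728 listed. The samples were fibroblasts from the hearts of Wistar rats at an age of 1 to 2 days, grown in DMEM with 10% serum and antibiotics, and the exosomes that such fibroblasts shed into their medium. Exosomes are small vesicles, here pelleted by ultracentrifugation from culture medium after 48 h with 1% exosome-depleted serum. Each group had 3 small RNA libraries, and both groups share strain, age and culture. Whether the replicates came from different cultures is not in the labels, so the p-values speak to the spread among these libraries, possibly a technical one. The fibroblasts were a primary culture, in which other heart cells can persist, and the pellet can hold small RNA carriers other than exosomes.

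In the canonical route, Drosha with DGCR8 cuts a hairpin out of a long transcript in the nucleus, Dicer removes its loop in the cytoplasm, and Argonaute keeps a single arm. The families here fall into 3 classes by how they avoid Drosha. The hairpins of miR-320 and miR-484 start where transcription starts, and that of miR-320 is known to carry the cap of its transcript. A capped 5p arm is poorly taken up by Argonaute, so that the 3p arm is the usual product of miR-320. Mirtrons, here miR-702, miR-877 and miR-1224, are short introns whose ends are set by splicing. The hairpins of miR-664 and miR-1839 belong to H/ACA small nucleolar or Cajal body RNAs, which guide pseudouridylation, and are cut by Dicer. RefSeq lists the miR-1839 hairpin under the symbol Scarna15 and that of miR-664-1 under Snora36c. All 3 classes need Dicer. The known Dicer-independent miRNA, miR-451, which Argonaute 2 cuts itself, was used for comparison.

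The mature sequences of 10 of the 12 members were matched by name in RefSeq (build GRCr8), and those of miR-320-3p and miR-320-5p were not. They are shown because the 5′ end sets the seed, the bases that pair with targets, and in mirtrons the 5′ end is also the splice donor. Capitals mark the seed, bases 2 to 8.
miR-484: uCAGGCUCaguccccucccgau
miR-702-5p: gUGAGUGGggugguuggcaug
miR-702-3p: uGCCCACCcuuuaccccacucca
miR-877: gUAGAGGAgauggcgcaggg
miR-1224: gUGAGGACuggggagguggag
miR-664-1-5p: cUGGCUGGggaaaaagauugg
miR-664-2-5p: cUGGCUGGggaaaaugauugg
miR-664-3p: uAUUCAUUuacuccccagccua
miR-1839-5p: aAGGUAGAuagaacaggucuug
miR-1839-3p: aGACCUACuuaucuaccaacag
Among these 10, a seed was shared only by the 5p arms of miR-664-1 and miR-664-2. They differ by a single substitution, A15U from miR-664-1-5p to miR-664-2-5p, counted from the 5′ end. miR-664-3p is listed with no copy number, so its reads cannot be assigned to a copy. Reads of the 5p copies are uncertain where the substituted base was misread. The seed of miR-484 was also that of miR-344a-5p.

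The hairpins of the mirtrons are shown for their ends. Capitals mark the leading GU, as in a splice donor, and the last AG, as in a splice acceptor. Exon boundaries of the host genes were not looked up.
miR-877: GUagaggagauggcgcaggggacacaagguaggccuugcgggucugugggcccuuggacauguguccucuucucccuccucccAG
miR-1224: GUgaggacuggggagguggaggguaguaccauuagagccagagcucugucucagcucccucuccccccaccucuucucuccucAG
miR-702: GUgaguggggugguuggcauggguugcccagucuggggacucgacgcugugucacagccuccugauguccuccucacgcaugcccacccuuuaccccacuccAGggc
They lie at chr20:2816284-2816368 (+ strand, within Abcf1), chr11:93811291-93811375 (- strand, within Vwa5b2) and chr12:25318495-25318601 (- strand, within Plod3) of GRCr8. The annotated hairpins of miR-877 and miR-1224 began with GU and ended with AG, as did 4 of 419 rat hairpins in the table (0.955%). The annotated hairpin of miR-702 began with GU and ran 3 bases past its last AG. miR-877, miR-1224 and miR-702-5p began at base 1 of their hairpins. GU was the start of 18 of the 655 matched mature miRNAs (2.75%), and these 3 members were among them.

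The transcription-start hairpin of miR-484 shows where its product lies. Capitals are not used in it.
miR-484: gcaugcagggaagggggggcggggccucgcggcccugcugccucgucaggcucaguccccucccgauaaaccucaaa
It lies at chr10:1394905-1394981 (- strand) of GRCr8, with Marf1 as the nearest protein-coding gene. The mature miRNA starts at base 46 of the 77 bases, on the 3p side. The nearest protein-coding gene to the miR-320 hairpin was Polr3d.

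Sequencing depth differed strongly between the groups. Listed miRNA counts were 113129 to 120224 per exosome library and 2439559 to 12508651 per fibroblast library. In exosomes miR-873-3p held 84.9% to 90.1% of the counts, which left 11825 to 18164 counts for all other miRNAs. One exosome column carried no number and is called the unnumbered library. Levels are given in CPM, counts relative to a common library total, after TMM scaling, a scaling between libraries that limits the weight of extreme miRNAs. A single count was worth 6.19, 7.83 and 19.5 CPM in exosome libraries 1, 2 and unnumbered, and 0.0402 to 0.517 CPM in the fibroblast libraries. Markers of the labelled cells, 7 fibroblast and mesenchymal miRNAs, made up 52.3% to 54.3% of fibroblast counts without miR-873-3p and 1.17% to 13.7% of exosome counts. On the same base, 4 blood miRNAs held 0.110% to 0.139% of exosome and 0.00298% to 0.0172% of fibroblast counts. The 2 endothelial miRNAs held 0.639% to 0.973% and 0.0101% to 0.0156%, the 5 epithelial ones 0.0907% to 0.231% and 0.0107% to 0.0262%, and the 4 cardiomyocyte ones 0.0220% to 0.0628% and 0.00731% to 0.0123%. None of these markers was at 0 in all 6 libraries. In CPM, single cardiomyocyte markers did not all follow their sum. miR-499-5p stood at 0, 0 and 19.5 CPM in exosome libraries 1, 2 and unnumbered. In fibroblast libraries 1, 2 and 4 it stood at 66.1, 37.5 and 24.8 CPM. miR-133a-3p and miR-208a-3p overlapped between the groups. The endothelial sum followed miR-126a-3p, at 700, 713 and 1907 CPM in exosomes and 33.4, 14.7 and 67.2 CPM in fibroblasts. miR-126a-5p overlapped, at 18.6, 31.3 and 331 CPM in exosomes and 70.1, 58.8 and 125 CPM in fibroblasts. So did the epithelial miR-200a-3p, miR-200b-3p, miR-200c-3p and miR-429. Leaving miR-873-3p out of the total raises the shares of all other miRNAs, and more so in exosomes. In the bulk fibroblast libraries, fewer cells of a type and less RNA per cell cannot be told apart. The exosome shares give no cell numbers.

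Of the 12 members, 1 was higher in exosomes (miR-320-5p), 2 were lower (miR-1839-5p and miR-664-3p) and 9 were not called. All 12 passed the filter on low counts. The test was the quasi-likelihood test of edgeR, with p adjusted by Benjamini and Hochberg over all 698 tested miRNAs, and called means an adjusted p under 0.05. Over all tested miRNAs 29.9% were called, 11.3% higher and 18.6% lower, so that 3 of 12 is near the background. The exosome and fibroblast libraries did not overlap for 5 members, against 39.4% of all tested miRNAs. The median log2 fold change, exosome minus fibroblast, was -0.58 over the members and -0.15 over all tested miRNAs. The capped or start-site class had 1 of 3 higher and 0 lower, with a median of -0.70. The mirtrons had 0 of 4 called in either direction, with a median of -0.02. The class tied to small nucleolar RNAs had 0 of 5 higher and 2 lower, with a median of -1.16. The difference between classes was not tested. For 8 of the 9 members not called, the sign of the fold change turned under at least 1 of the other settings, so their values below are given without a direction. Apart from miR-702-3p, each of these 9 was called under 1 of the other library sizes. With library sizes without the 5 top miRNAs, miR-702-5p, miR-664-1-5p and miR-1839-3p were called higher (log2 fold changes 2.50, 2.49 and 2.37, edgeR adjusted p = 0.012, 0.039 and 0.049). With library sizes from reads of no listed miRNA, miR-877, miR-664-2-5p, miR-320-3p, miR-484 and miR-1224 were called lower (-2.34, -2.18, -1.94, -1.89 and -1.75, edgeR adjusted p = 0.0069, 0.013, 0.023, 0.026 and 0.035).

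The members together were a small part of either pool. They summed to 204, 143 and 94 counts in exosome libraries 1, 2 and unnumbered, and to 10055, 32326 and 3627 in fibroblast libraries 1, 2 and 4. As a share of all listed counts this was 0.0790% to 0.170% in exosomes and 0.149% to 0.258% in fibroblasts. Without miR-873-3p in the total it was 0.795% to 1.12% in exosomes and 0.152% to 0.259% in fibroblasts. The groups overlapped on the first base and not on the second. The second base is not particular to the members. With library sizes without the 5 top miRNAs, the median log2 fold change was 1.33 over all tested miRNAs and 0.91 over the members.

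**Figure D1:**
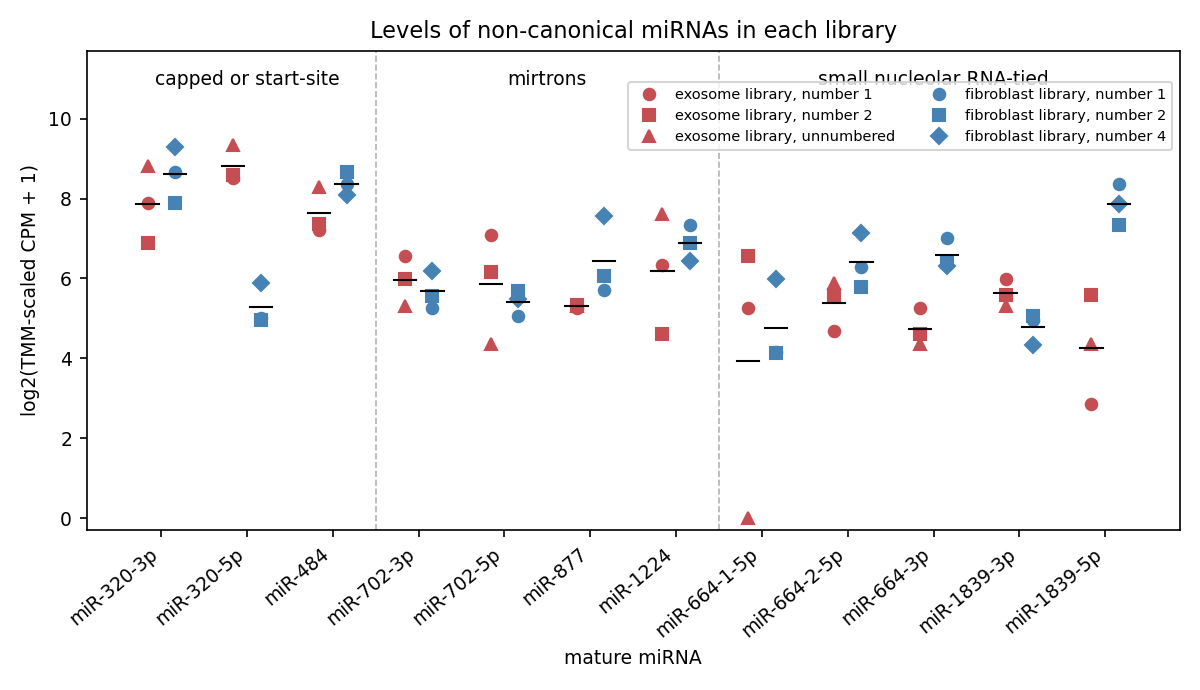
Level of each of the 12 members in each library, as log2(TMM-scaled CPM + 1) on the vertical axis, exosome libraries in red and fibroblast libraries in blue; short black lines are group means of the plotted values. miR-320-5p lies higher in all exosome libraries, and miR-1839-5p and miR-664-3p lie lower; miR-664-1-5p had 0 counts in the unnumbered exosome library.

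In the capped class, the 2 arms of miR-320 changed unequally. miR-320-5p, the arm that carries the cap in the hairpin, stood at 365, 384 and 642 CPM in exosome libraries 1, 2 and unnumbered (59, 49 and 33 counts). In fibroblast libraries 1, 2 and 4 it stood at 31.4, 30.3 and 57.9 CPM (194, 753 and 112 counts). Every exosome library was above every fibroblast library. The difference was 11.5-fold (log2 fold change 3.53, SE 0.69, edgeR adjusted p = 1.2e-05). Its rank by mean CPM among tested miRNAs was 60 in exosomes and 450 in fibroblasts.

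miR-320-3p, the arm that Argonaute usually keeps, stood at 235, 118 and 447 CPM in exosome libraries 1, 2 and unnumbered (38, 15 and 23 counts). The fibroblast values were 406, 236 and 620 CPM (2506, 5872 and 1199 counts). The groups overlapped, with the unnumbered exosome library above fibroblast libraries 1 and 2. The log2 fold change was -0.70 (SE 0.69) and missed the threshold (edgeR adjusted p = 0.48), and its sign turned (0.87) once library sizes were taken without the 5 top miRNAs. Without the unnumbered exosome library it was -1.38 (edgeR adjusted p = 0.19). At ranks 93 and 106 in exosomes and fibroblasts, this arm was the most abundant member in fibroblasts, while miR-320-5p was the most abundant in exosomes.

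The share of the 5p arm among the counts of both miR-320 arms needs no scaling between libraries. It was 60.8% (95% Clopper-Pearson interval 50.4 to 70.6), 76.6% (64.3 to 86.2) and 58.9% (45.0 to 71.9) in exosome libraries 1, 2 and unnumbered. In fibroblast libraries 1, 2 and 4 it was 7.19% (6.24 to 8.22), 11.4% (10.6 to 12.2) and 8.54% (7.09 to 10.2). The 5p arm thus held most of the miR-320 counts in each exosome library and a minor part in each fibroblast library. The group values were 65.4% ± 9.68 and 9.03% ± 2.13 (SD, n = 3 each). The exosome to fibroblast ratio of the 5p arm was 18.8 times that of the 3p arm (log2 difference 4.23, SE 0.90). This passed edgeR's test of unequal change within a hairpin (diffSpliceDGE, adjusted p = 7.4e-05 over 248 hairpins with both arms tested). That test called 33.5% of the 248 hairpins, and 35 hairpins had a larger difference between arms than miR-320. Among the 83 called hairpins, the arm of lower mean log2 level over all 6 libraries was the relatively higher arm in exosomes in 53 and the relatively lower one in 30. The intervals reflect counting error alone, because amplified reads do not count molecules.

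**Figure D2:**
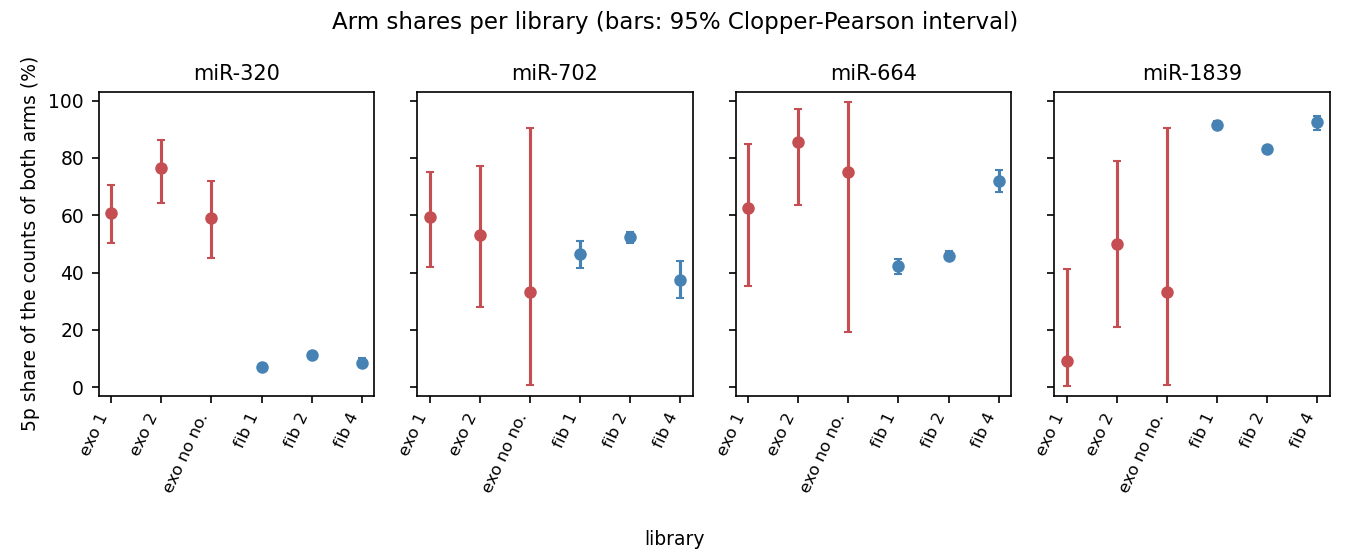
Share of the 5p arm (vertical axis, %) among the counts of both arms in each library for miR-320, miR-702, miR-664 (both 5p copies summed) and miR-1839; bars are 95% Clopper-Pearson intervals, exosomes red, fibroblasts blue. The share of miR-320 is 58.9% to 76.6% in exosomes and 7.19% to 11.4% in fibroblasts, that of miR-1839 is 9.09% to 50.0% and 83.1% to 92.4%, and that of miR-702 overlaps between the groups.

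The call of miR-320-5p held with each library left out and under each other scaling tested. With each library left out in turn its log2 fold change was 3.14 to 3.83 (edgeR adjusted p = 4.6e-05 to 0.0026), and the arm difference 3.99 to 4.51 (adjusted p = 2.9e-05 to 0.0029). Library sizes without the 5 top miRNAs gave 5.07, and those from reads of no listed miRNA gave 2.42. These settings moved the median of all tested miRNAs from -0.15 to 1.33 and -1.13, and total counts moved it to -0.57. The deposited normalized table held the same 59, 49 and 33 reads of miR-320-5p in exosomes. Of miR-320-3p it held 37, 12 and 23 reads, against raw counts of 38, 15 and 23. In the authors' deposited table, the log2 ratio of fibroblast over exosome was -3.61 for miR-320-5p, with an adjusted p of 0.73. Of all miRNAs, 7.28% had an adjusted p under 0.05 there, and 0 of the 12 members did. Relative to miR-873-3p, which dominates the exosome counts, miR-320-5p had 0.578, 0.496 and 0.308 counts per 1000 in exosomes and 2.42, 15.4 and 1.93 in fibroblasts. On this base, which was not tested, the direction was the other way, with every exosome library under every fibroblast library.

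miR-484, a transcription-start hairpin with a single listed arm, was the member of the second-highest fibroblast level. It stood at 149, 165 and 311 CPM in exosomes (24, 21 and 16 counts) and at 327, 405 and 273 CPM in fibroblasts (2021, 10075 and 528 counts). The unnumbered exosome library lay within the fibroblast range and the other two lay under it. Its log2 fold change was -0.73 (SE 0.67), missed the threshold (edgeR adjusted p = 0.45) and turned to 0.61 once library sizes were taken without the 5 top miRNAs. miR-484 and miR-320-3p, both 3p products of such hairpins, thus had like estimates of -0.73 and -0.70. Ranked by mean CPM, miR-484 was at 124 in exosomes and 123 in fibroblasts.

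**Figure D3:**
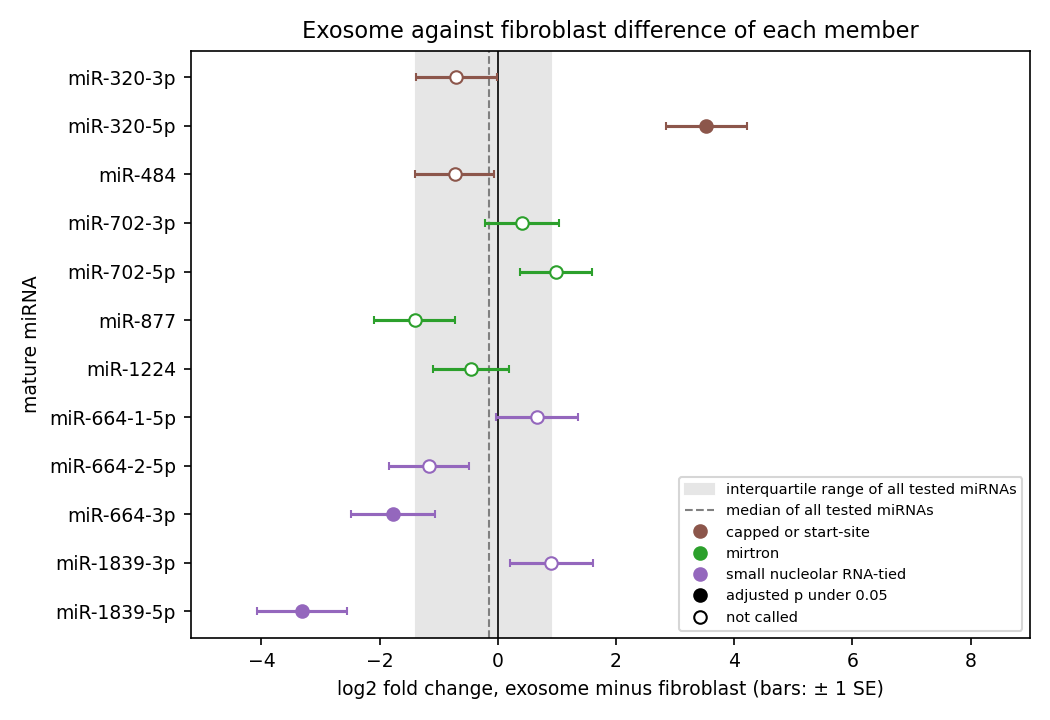
Log2 fold change (exosome minus fibroblast, horizontal axis) of each member with ± 1 SE, coloured by class and filled where the edgeR adjusted p was under 0.05; the grey band is the interquartile range of all tested miRNAs and the dashed line their median of -0.15. The called miR-320-5p, miR-1839-5p and miR-664-3p lie at 3.53, -3.32 and -1.77, and the 9 members not called lie between -1.41 and 0.98.

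None of the mirtron products was called. miR-1224, from a hairpin within Vwa5b2, was the most abundant of them. It stood at 80.5, 23.5 and 195 CPM in exosomes (13, 3 and 10 counts) and at 161, 117 and 86.4 CPM in fibroblasts (996, 2920 and 167 counts). The exosome libraries lay both above and under the fibroblast range. The log2 fold change was -0.46 (SE 0.64, edgeR adjusted p = 0.65), and -1.24 without the unnumbered exosome library (adjusted p = 0.18).

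miR-877, from a hairpin within Abcf1, varied little among exosome libraries, at 37.2, 39.2 and 38.9 CPM, but these rest on 6, 5 and 2 counts. In fibroblasts it stood at 51.2, 66.4 and 189 CPM (316, 1652 and 365 counts), with library 4 far above the others. The groups did not overlap, and the log2 fold change was -1.41 with an SE of 0.68 (not called, edgeR adjusted p = 0.11). With library sizes from reads of no listed miRNA it passed (-2.34, edgeR adjusted p = 0.0069), and without the 5 top miRNAs its sign turned (0.31).

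miR-702 was the mirtron with both arms listed. The 5p arm, which begins at the leading GU of the hairpin within Plod3, stood at 136, 70.5 and 19.5 CPM in exosomes (22, 9 and 1 counts). Its fibroblast values were 32.4, 50.7 and 43.5 CPM (200, 1262 and 84 counts). The 3p arm stood at 92.9, 62.7 and 38.9 CPM in exosomes (15, 8 and 2 counts) and at 37.6, 46.3 and 72.4 CPM in fibroblasts (232, 1151 and 140 counts). Both arms were highest in exosome library 1 and lowest among exosomes in the unnumbered library, and both overlapped between groups. The log2 fold changes of 0.98 (SE 0.61) and 0.41 (SE 0.62) did not pass (edgeR adjusted p = 0.24 and 0.68). Without exosome library 1, that of the 5p arm was 0.07 (edgeR adjusted p = 0.97). With library sizes without the 5 top miRNAs the 5p arm was called higher (2.50, edgeR adjusted p = 0.012).

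The arms of miR-702 were near balance in both groups. The 5p share was 59.5%, 52.9% and 33.3% in exosomes, of 37, 17 and 3 counts, and 46.3%, 52.3% and 37.5% in fibroblasts. The arm difference of 0.57 (SE 0.90) did not pass (diffSpliceDGE adjusted p = 0.65). The normalized table held 12, 7 and 2 exosome reads of miR-702-3p, and 118 of its 140 counts in fibroblast library 4.

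In the class tied to small nucleolar RNAs, the arms of miR-1839 changed unequally. miR-1839-5p, the main arm in fibroblasts, stood at 6.19, 47.0 and 19.5 CPM in exosomes (1, 6 and 1 counts). In fibroblasts it stood at 328, 160 and 234 CPM (2025, 3970 and 452 counts). The groups did not overlap, and the level in exosomes was lower by a factor of 9.97 (log2 fold change -3.32 with an SE of 0.77, edgeR adjusted p = 0.00022). The call was lost once library sizes were taken without the 5 top miRNAs (-1.62, edgeR adjusted p = 0.14; the alternatives ranged from 3.6e-06 to 0.14). It held with each library left out in turn, where the log2 fold change was -4.83 without exosome library 2 and -2.89 without exosome library 1.

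miR-1839-3p stood at 61.9, 47.0 and 38.9 CPM in exosomes (10, 6 and 2 counts) and at 30.1, 32.4 and 19.1 CPM in fibroblasts (186, 805 and 37 counts). The groups did not overlap, and the log2 fold change was 0.90 with an SE of 0.70 (not called, edgeR adjusted p = 0.37). The 5p share of both arms was 9.09%, 50.0% and 33.3% in exosomes, of only 11, 12 and 3 counts, and 91.6%, 83.1% and 92.4% in fibroblasts. The upper limit of the 95% interval in the unnumbered library, 90.6%, lay within the fibroblast range, while those of libraries 1 and 2, 41.3% and 78.9%, lay under it. The exosome to fibroblast ratio of the 5p arm was lower than that of the 3p arm by 4.22 on the log2 scale (SE 1.02, diffSpliceDGE adjusted p = 0.00044). Without exosome library 1 it was -3.40 (adjusted p = 0.035), and without library 2 it was -5.61. In both miR-320 and miR-1839 the arm that was minor in fibroblasts was the relatively higher arm in exosomes.

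The miR-664 products come from 2 hairpins, whose 5p arms differ by a single base. The miR-664-2 hairpin lies within Rab3gap2. miR-664-3p stood at 37.2, 23.5 and 19.5 CPM in exosomes (6, 3 and 1 counts) and at 129, 84.2 and 78.6 CPM in fibroblasts (798, 2096 and 152 counts). The groups did not overlap, and the level in exosomes was lower by a factor of 3.42 (log2 fold change -1.77 with an SE of 0.70, edgeR adjusted p = 0.041). This call was near the threshold. It was lost without exosome library 1, 2 or the unnumbered one (edgeR adjusted p = 0.070, 0.13 and 0.067), and with DESeq2 (0.069), total counts (0.17), library sizes without the 5 top miRNAs (0.89) and limma on the normalized signal (0.073). Over all alternatives run the adjusted p was 0.0012 to 0.89.

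The 5p copies were not called. miR-664-2-5p stood at 24.8, 47.0 and 58.4 CPM in exosomes (4, 6 and 3 counts) and at 77.1, 54.6 and 140 CPM in fibroblasts (476, 1359 and 271 counts), with a log2 fold change of -1.16 (SE 0.68, edgeR adjusted p = 0.21). miR-664-1-5p stood at 37.2, 94.0 and 0 CPM in exosomes (6, 12 and 0 counts) and at 17.0, 16.5 and 62.1 CPM in fibroblasts (105, 411 and 120 counts). The exosome libraries lay above, within and under the fibroblast range, and 0 counts in the unnumbered library allow a share of up to 0.00252% of its total, taken as 3 counts (the 95% Clopper-Pearson upper limit is 0.00310%). The log2 fold change of 0.67 (SE 0.69, edgeR adjusted p = 0.51) turned to -0.59 without exosome library 2, and it passed with library sizes without the 5 top miRNAs (2.49, adjusted p = 0.039). In fibroblasts the miR-664-1 copy gave 18.1%, 23.2% and 30.7% of the 5p counts, and in exosomes 60.0%, 66.7% and 0%, of 10, 18 and 3 counts. Both 5p copies together made up 62.5%, 85.7% and 75.0% of the miR-664 counts in exosomes and 42.1%, 45.8% and 72.0% in fibroblasts, and these ranges overlap.

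**Figure D4:**
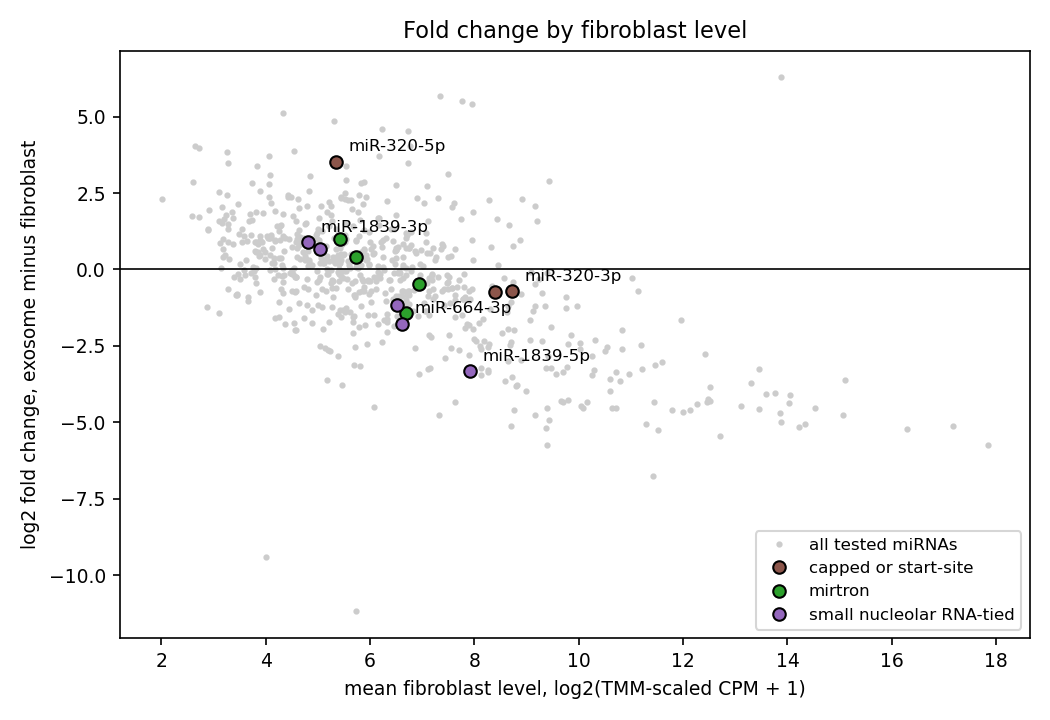
Log2 fold change (exosome minus fibroblast, vertical axis) against the mean fibroblast level as log2(TMM-scaled CPM + 1) for all 698 tested miRNAs (grey) and the 12 members (coloured by class). Abundant fibroblast miRNAs tend to lie lower, but the fibroblast level enters both axes, which by itself tilts the cloud this way. miR-320-5p at 3.53 lies in the upper part of the cloud and miR-1839-5p at -3.32 in its lower part.

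By mean CPM in fibroblasts the order was miR-320-3p (421), miR-484 (335), miR-1839-5p (240), miR-1224 (122), miR-877 (102), miR-664-3p (97.4), miR-664-2-5p (90.6), miR-702-3p (52.1), miR-702-5p (42.2), miR-320-5p (39.9), miR-664-1-5p (31.9) and miR-1839-3p (27.2). The libraries of each pair of neighbours in this order overlapped. Mature miRNAs of 20 to 23 bases need no scaling by length. By mean CPM in exosomes the order began with miR-320-5p (464), miR-320-3p (267), miR-484 (208) and miR-1224 (99.5) and ended with miR-877 (38.4), miR-664-3p (26.7) and miR-1839-5p (24.2). All members ranked between 106 and 518 among the 698 tested miRNAs in fibroblasts, and between 60 and 545 in exosomes.

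The profiles most like those of the most abundant member of each class were sought by Pearson's r of log2 CPM over the 6 libraries, which share depth and group. They were miR-150-5p (0.99), miR-181d-3p (0.96) and miR-30a-3p (0.91) for miR-320-3p. Of these, miR-30a-3p was lower in exosomes (log2 fold change -2.38, edgeR adjusted p = 0.0062) and the other two were not called, as miR-320-3p itself was not. For miR-1224 they were miR-338-3p (0.98), miR-6327 (0.97) and miR-483-3p (0.96), none of them called. For miR-1839-5p they were miR-204-5p (0.99), miR-31b (0.97) and miR-328a-3p (0.96), and all of these were lower in exosomes by the same test. Because r was taken over both groups, this shared call follows largely from how they were picked.

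A further list of non-canonical miRNAs held miR-451, miR-1225, miR-1226, miR-1981, miR-1982, miR-3102, miR-1291 and miR-1248. Only miR-451 and miR-3102 were among the listed miRNAs, with 3 mature entries, of which 2 were higher and 0 lower. Over all tested miRNAs 11.3% were higher and 18.6% lower, and 3 entries are too few to describe non-canonical miRNAs as a group. The Dicer-independent miR-451-5p, a miRNA of red blood cells, stood at 18.6, 78.3 and 214 CPM in exosomes (3, 10 and 11 counts) and at 18.1, 14.3 and 4.66 CPM in fibroblasts (112, 356 and 9 counts). Exosome library 1 lay barely above the fibroblast range and the unnumbered library far above it. The difference was 7.07-fold (log2 fold change 2.82, SE 0.70, edgeR adjusted p = 0.00052). The blood markers summed above include miR-451-5p itself, so their higher share in exosomes is not separate from this result. Each of the other blood markers overlapped between the groups. miR-144-3p ran from 6.19 to 19.5 CPM in exosomes and from 9.31 to 45.7 CPM in fibroblasts. For miR-142-3p the values were 0 to 37.2 and 9.83 to 31.9 CPM, and for miR-223-3p 19.5 to 74.3 and 12.9 to 23.4 CPM. The part of blood cells in this result was not tested.

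miR-451-3p, from the arm that Argonaute 2 slicing normally destroys, stood at 31.0, 23.5 and 38.9 CPM in exosomes (5, 3 and 2 counts) and at 21.4, 47.2 and 12.9 CPM in fibroblasts (132, 1175 and 25 counts). It exceeded miR-451-5p in all 3 fibroblast libraries. Its log2 fold change was 0.12 (SE 0.80, edgeR adjusted p = 0.93), and the arm difference of 2.71 (SE 1.07) passed the test (diffSpliceDGE adjusted p = 0.042). The mirtron miR-3102, from a hairpin within Arhgef17, stood at 223, 196 and 156 CPM in exosomes (36, 25 and 8 counts) and at 35.2, 45.4 and 79.1 CPM in fibroblasts (217, 1130 and 153 counts). It was 3.67-fold higher in exosomes (log2 fold change 1.87, SE 0.61, edgeR adjusted p = 0.010), whereas none of the 4 mirtron products above was called. The difference between them was not tested. Unlike the calls of the members, those of miR-451-5p, miR-3102 and the miR-451 arms were not checked under the other settings.

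**Figure D5:**
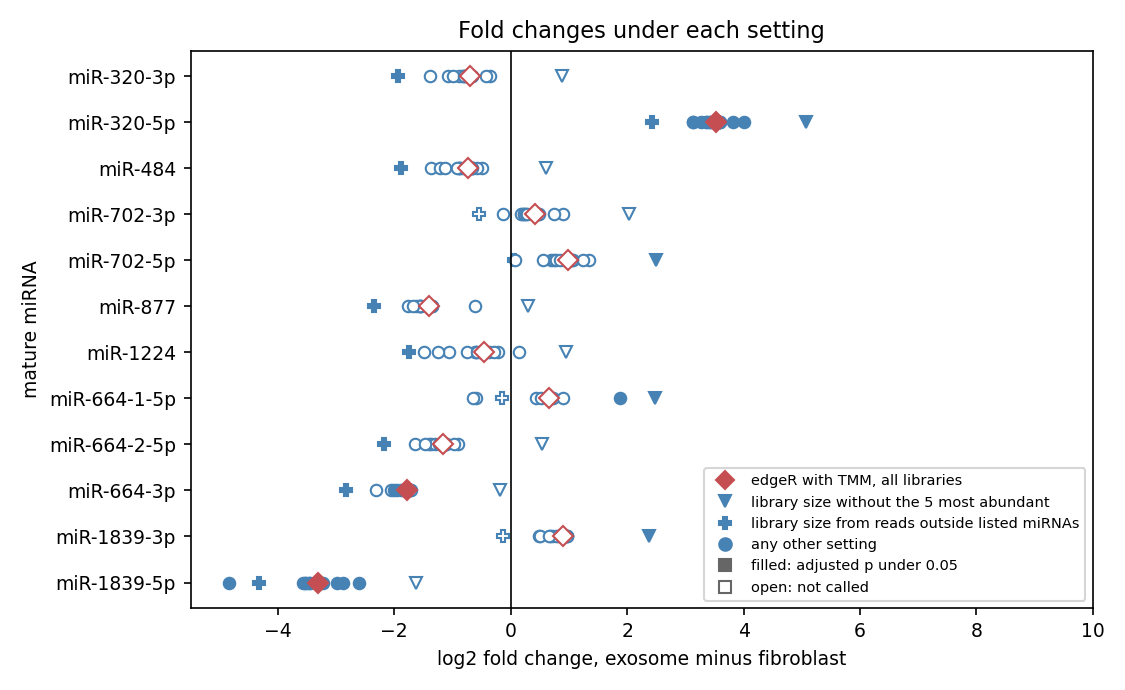
Log2 fold change (exosome minus fibroblast, horizontal axis) of each member under TMM scaling with all libraries (red) and under each other setting in which it was tested (blue), filled where the adjusted p was under 0.05. miR-320-5p is filled under all 16 other settings (2.42 to 5.07) and miR-1839-5p under 15 of 16, while 8 of the 12 members cross 0 under at least 1 setting.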

How the data were processed

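Small RNA libraries of 3 exosome and 3 fibroblast samples were compared. Raw counts of reads for each mature miRNA, as deposited by the authors, entered the main tests. A second table deposited by the authors held a normalized signal, scaled by library. It did not rest on the same reads throughout. Where whole reads could be recovered, some members had fewer than in the raw counts, as miR-702-3p in fibroblast library 4 (118 against 140). The authors' deposited comparison gave a ratio of mean normalized counts (fibroblast over exosome), its log2 value and p-values before and after adjustment, as the file headers name them. Per the submitters' processing notes, CASAVA 1.8.2, cutadapt 1.2.1, DESeq and build rn5 were used. The aligner is not given in the sources used here, nor are the counting rule and the miRNA annotation. Column names gave the samples, and 1 exosome column had no number.

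Counts were fitted with edgeR 4.0.16 (R 4.3.3). After filterByExpr with a minimum count of 10 and total of 15, which removed 30 of 728 miRNAs, libraries were scaled by TMM. Exosomes were set against fibroblasts by the two-sided quasi-likelihood test, adjusted by Benjamini-Hochberg at 0.05. The SE is the absolute log2 fold change over the square root of F. Arms were compared with diffSpliceDGE. Both steps were run on simulated data with planted changes. Apart from these, the simulation gave both groups equal mean levels, unlike the dominance of miR-873-3p in exosomes. It therefore does not speak to the scaling here. The members, lists and tests were chosen with earlier results of these data known. All members were named, with the 3 miRNAs of most similar profile for the most abundant member of each class and a further list of non-canonical miRNAs. Alternatives were DESeq2 1.42.0, other scalings, filters, thinning, a replicate block, leaving out each library and, added after seeing the data, limma 3.58.1 on log2(normalized signal + 1). Sequences are from RefSeq (GRCr8). The row of the normalized table that names no miRNA was used only for 1 alternative library size.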

Additional observations from a re-analysis of the deposited data

How the results depend on the processing

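Exosome depth limits every result on the members: 8 of the 12 had under 10 counts in at least 2 of the 3 exosome libraries. Over all tested miRNAs, 79 were called higher and 130 lower. These were 43 higher with total counts, 187 and 60 once library sizes excluded the 5 top miRNAs, 33 and 238 with library sizes based on reads of no listed miRNA, and 39 higher with limma. With 1 library left out they were 46 to 78 higher and 86 to 139 lower. Among members the calls were 1 higher and 2 lower. Without the 5 top miRNAs these were 4 and 0, and with reads of no listed miRNA 7 were lower. DESeq2, total counts, thinning and limma each left 1 lower, and leaving out 1 library 1 to 2 lower and 1 higher. Not every member was tested in these fits: 5 of the 12 after thinning, and 9, 5 and 8 without fibroblast library 1, 2 and 4. miR-664-3p was not tested after thinning or without fibroblast library 1 or 2, so its call was not lost there by a test. The 83 hairpins called for arm usage became 38 to 86 with 1 library left out; without fibroblast library 1, 2 or 4 only 402, 359 and 414 miRNAs were tested.

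Signs turned as follows. Without the 5 top miRNAs, the log2 fold changes were 0.95 for miR-1224, 0.87 for miR-320-3p, 0.61 for miR-484, 0.54 for miR-664-2-5p and 0.31 for miR-877. With reads of no listed miRNA they were -0.13 for miR-1839-3p, -0.14 for miR-664-1-5p and -0.54 for miR-702-3p. Thinning gave 0.15 for miR-1224 and limma -0.66 for miR-664-1-5p. With 1 library left out the range was -0.59 to 0.90 for miR-664-1-5p and -0.13 to 0.75 for miR-702-3p. These 8 were not called by the first fit. Fits on reads behind the normalized table were not run, since whole reads could be recovered for 4 of its 6 columns. Only numbers 1 and 2 are shared between the groups, and deviations of same-numbered libraries correlated at -0.05 and 0.15. Low exosome counts would hide a shared culture, so these values cannot tell whether the numbers pair the samples. With the replicate block 2 members were called higher, miR-664-1-5p (1.89, edgeR adjusted p = 0.027) besides miR-320-5p, and no other member's call changed.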

Other observations

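GGAG and CCCU are short motifs that have been described in miRNAs sorted to vesicles. Searched on the RNA strand only, GGAG was found in 51 of the 655 matched mature miRNAs (7.79%), among them miR-877 and miR-1224. Of the 51, all tested, 4 were higher in exosomes and 10 lower, with a median log2 fold change of -0.59, against -0.08 for matched miRNAs without it. CCCU was found in 62 (9.47%), among them miR-484 and miR-702-3p. Of the 60 tested, 6 were higher and 13 lower, with a median of -0.45 against -0.07. These are descriptions with no test, and no match says only that these letters are not in the sequence.

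The GC content of the 10 matched members had a median of 56.6% and ran from 40.9% in miR-664-3p and both miR-1839 arms to 66.7% in miR-1224. The median of all 655 matched miRNAs was 47.6%.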
